A study of Mus musculus with 6 samples.

Results

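Among the sorted amygdala cells were a few that carried transcripts of dividing cells or of *Sox11*, a transcription factor gene of the early neuronal lineage. These cells were chosen by their measured UMI counts. A UMI is a molecular tag, so that UMIs count RNA molecules. A barcode was a member if it had at least 500 detected genes, under 6% mitochondrial UMIs and no more than 3 UMIs of the pericyte genes *Vtn* and *Rgs5* together, and if it had either at least 3 UMIs of *Top2a* and *Mki67* together or at least 3 UMIs of *Sox11*. Members that met the *Top2a* and *Mki67* threshold are called cycling here and the others non-cycling. The rule found 113 members among 13546 barcodes, of which 39 were cycling and 74 were non-cycling. Astrocytes, used for comparison, were the 8026 barcodes with at least 20 UMIs of the glutamate transporter genes *Slc1a2* and *Slc1a3*, no more than 3 of *Vtn* and *Rgs5*, and neither threshold met.

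The cells came from the amygdala of young adult mice, labelled as male wild-type C57BL/6N, and were dissociated in the presence of transcription and translation inhibitors and sorted with an antibody against ACSA-2, an epitope of ATP1B2 that marks astrocytes, alongside stains for CD11b, CD45 and O1. The methods of the study name the substrain C57BL/6NCrSlc and both sexes for its experiments as a whole. Mice were placed in the conditioning context without shock (NoFC), fear conditioned (FC), conditioned without recall (NoFR) or conditioned and then returned for fear recall (FR), with 4 mice in each group. The submitters labelled the sorted cells as astrocytes. The cells of each mouse were stained with a hashtag antibody and pooled into 3 libraries of 5287, 3631 and 4628 barcodes, which held 42350059, 31700569 and 33368825 gene UMIs. The hashtag table lists 2 mice of each group in library 1, 2 FC mice, 1 NoFC mouse and 1 FR mouse in library 2, and 2 NoFR mice, 1 NoFC mouse and 1 FR mouse in library 3. Other hashtags were also called in these libraries, and the mice behind them are not listed.

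In the adult rodent brain, neural stem cells with astrocyte-like features give rise to dividing intermediate progenitors, which are known for *Egfr*. Along this lineage *Sox11*, *Sox4* and *Dcx* come on, and the daughters leave the cell cycle and become immature neurons. TOP2A, a topoisomerase, untangles replicated DNA and Ki-67, the protein of *Mki67*, coats mitotic chromosomes, so that their RNAs are used as marks of late S phase to mitosis. *Eomes* and *Neurod1* are known from progenitors of glutamatergic neurons, and *Dlx1*, *Dlx2* and *Gad2* from those of GABAergic neurons.

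Library 1 held 49 members, 1.14% of its 4286 filtered barcodes (95% Wilson interval 0.866 to 1.51%). Library 2 held 25 of 3079, which is 0.812% (0.551 to 1.20%), and library 3 held 39 of 3738, which is 1.04% (0.764 to 1.42%). The intervals overlapped and cover counting error only. Cycling members numbered 22, 8 and 9 in libraries 1, 2 and 3, and non-cycling members 27, 17 and 30. In all, 118 barcodes met a UMI threshold, of which 3 failed on detected genes or mitochondrial share and 2 on *Vtn* and *Rgs5*. The 2 were 1 barcode with *Top2a* and *Mki67* and 1 with *Sox11*. A total of 18 barcode sequences occurred in more than 1 library, and 1 of them was a member. The doublet caller Scrublet marked 0 of the 113 members and 75 barcodes in all, or between 0.616 and 0.679% of a library. Hashtags called 19 of the 113 members as doublets (16.8%), 7 of 39 cycling and 12 of 74 non-cycling, against 16.3% of astrocytes, and these members were kept.

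*Top2a* lies at chr11:98992943-99024189 on the reverse strand, *Mki67* at chr7:135689784-135716361 on the reverse strand and *Sox11* at chr12:27334264-27342574 on the reverse strand of GRCm38 (GENCODE vM21). *Top2a* and *Mki67* together gave 0 UMIs in 8020 astrocytes and 1 UMI in 6. Non-cycling members had 0 in 67 cells, 1 in 4 and 2 in 3, just outside the threshold, and the lowest cycling members, just inside, had 3 and 4. Of the cycling members, 25 had between 69 and 245 such UMIs (median 106) and 14 had between 3 and 23 (median 9), with no cell between 23 and 69. *Sox11* gave 0 UMIs in 7047 astrocytes, 1 in 775 and 2 in 204, and 3 UMIs in 38 non-cycling members and 4 in 15. A further 5 non-cycling members had 5 or 6 UMIs, and the remaining 16 had between 10 and 111 (median 49).

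**Figure D1:**
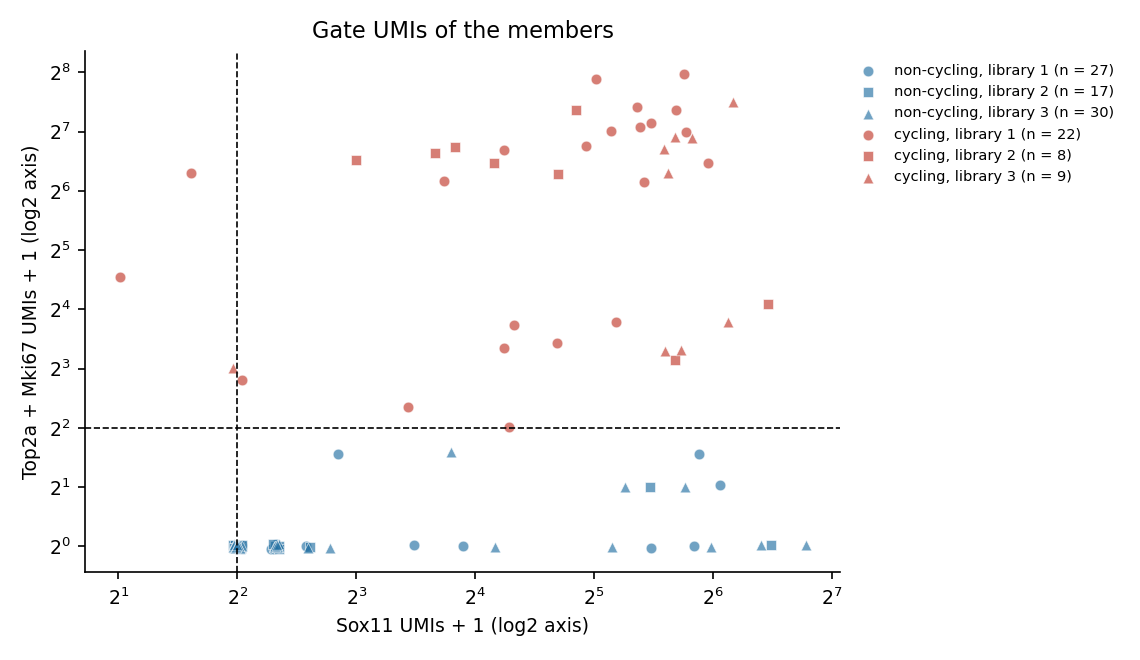
Each point is 1 of the 113 members, placed by its *Sox11* UMIs (horizontal) and its *Top2a* and *Mki67* UMIs (vertical), each plus 1 on a log2 axis with a slight jitter; colour gives the class and shape the library, and dashed lines mark the thresholds of 3 UMIs. The 53 non-cycling members with 3 or 4 *Sox11* UMIs crowd the lower left, whereas 16 reach 10 or more, and all but 2 cycling members lie to the right of the *Sox11* threshold.

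The label of progenitor cells held for some members and not for others. Measured against astrocytes, cycling members and the 16 non-cycling members with at least 10 *Sox11* UMIs carried *Stmn1*, *Marcksl1* and *Hes6* at high pooled levels. Not every such cell held all of them. A cycling member of 16140 UMIs had 28 UMIs of *Stmn1* but 0 of *Marcksl1* and *Hes6*, beside 106 of *Slc1a2* and *Slc1a3*. Another, of 11327 UMIs, had 0 of *Stmn1* and *Marcksl1* and 3 of *Hes6*, and the shallowest, of 2985 UMIs, had 0 of each. The 53 non-cycling members with 3 or 4 *Sox11* UMIs had pooled levels of these genes close to those of astrocytes. *Stmn1*, which encodes the microtubule-destabilizing protein stathmin, was at 2572 CPM, that is, counts per 1e+06 UMIs, over the 25 cycling members with 69 or more *Top2a* and *Mki67* UMIs, at 1720 CPM over the 14 with 23 or fewer, at 1711 CPM over the 16 with at least 10 *Sox11* UMIs, at 26.8 CPM over the 53 with 3 or 4, and at 25.8 CPM over astrocytes. *Marcksl1*, for an actin-binding substrate of protein kinase C, was at 333, 454, 558, 6.70 and 5.09 CPM in the same order, and *Hes6*, for a Hes protein known to oppose HES1, at 554, 319, 285, 16.1 and 10.0 CPM. Pooled over the 5 members with 5 or 6 *Sox11* UMIs, *Stmn1* was at 366 CPM and *Marcksl1* at 77.5 CPM, but these cells were not alike. Those with 13 and 17 *Stmn1* UMIs had 0 UMIs of the astrocyte gene *Aqp4*. Those with 3, 0 and 0 *Stmn1* UMIs had 14, 13 and 6 *Aqp4* UMIs and 0 of *Marcksl1*. *Eomes* was at 74.2 and 78.9 CPM in the cycling members, at 329 CPM in the 16 cells, and at 0 UMIs in all 58 non-cycling members with fewer than 10 *Sox11* UMIs. It had UMIs in 16 of the 55 members that were cycling or had at least 10 *Sox11* UMIs. The 78.9 CPM came from 1 cell with 24 UMIs.

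Astrocyte genes ran the other way. *Aqp4*, the water channel of astrocyte endfeet, was detected in 7 of 39 cycling members, in 0 of the 16 and in 51 of the 53, with levels of 654 CPM in the 53 and 579 CPM in astrocytes. *Aldoc*, a glycolytic enzyme gene of astrocytes, was at 49.8 CPM in the 16, at 1920 CPM in the 53 and at 1977 CPM in astrocytes. The 53 cells are therefore called here non-cycling members with 3 or 4 *Sox11* UMIs and not progenitors. They were deeper than astrocytes, with a median of 13058 UMIs against 10214, and shares at equal depth are given with the *Sox11* shares of the cycling members.

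**Figure D2:**
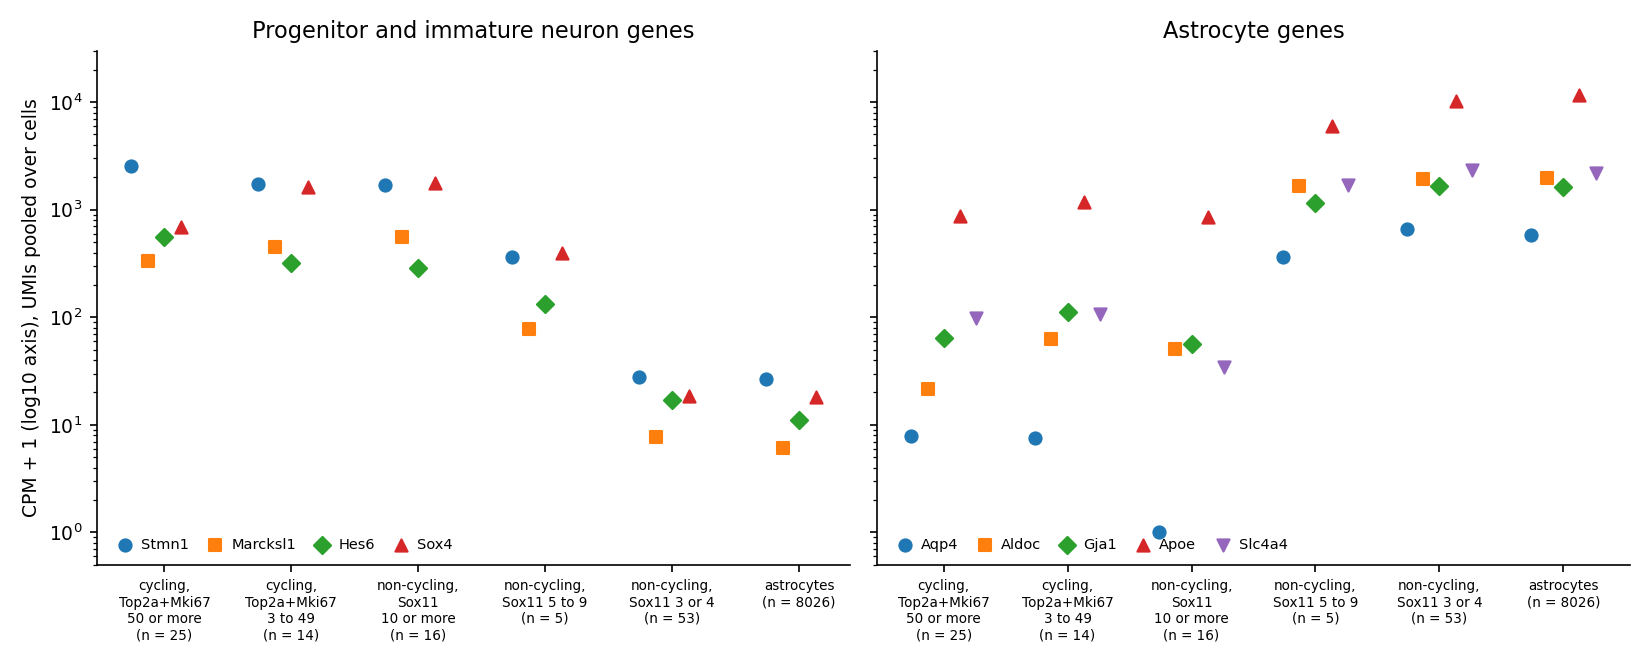
Points give the level of a gene in CPM plus 1 (log10 axis), with UMIs pooled over the cells of each class, for cycling members with at least 50 or fewer *Top2a* and *Mki67* UMIs, for non-cycling members by their *Sox11* UMIs, and for astrocytes. The 4 progenitor and immature neuron genes at left fall and the 5 astrocyte genes at right rise between members with at least 10 *Sox11* UMIs and members with 3 or 4, whose levels lie close to those of astrocytes.

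Cycling members held more RNA than the other cells. Their median was 30469 UMIs (lowest 2985, highest 52631) and 6730 genes, against 14738 UMIs in non-cycling members, 24598 in the 16 with at least 10 *Sox11* UMIs and 10214 in astrocytes. *Sox11* had no part in choosing the cycling members, yet 37 of 39 reached 3 UMIs (94.9%, 95% Wilson interval 83.1 to 98.6%) and all 39 had at least 1. With every cell thinned to 5000 UMIs, 28 of 38 cycling members still had at least 3 (73.7%, 58.0 to 85.0%) and 35 of 38 at least 1. Of the thinned non-cycling members, which were chosen by *Sox11*, 24 of 73 still had at least 3 (32.9%). Thinned astrocytes had a *Sox11* UMI in 6.22% of 7590 cells (12.2% of 8026 without thinning). Cells with more than 3 *Vtn* and *Rgs5* UMIs, a mural class that should lack the gene, had one in 0.394% of 1268 thinned cells (0.688% of 2470 without thinning, at a median of 5056.5 UMIs). By library, at least 3 UMIs stood in 16 of 22, 5 of 8 and 7 of 8 thinned cycling members of libraries 1, 2 and 3 (20 of 22, 8 of 8 and 9 of 9 without thinning), against 0 of 1268 thinned cells of the mural class.

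Cycling members differed in the phase whose genes they held. Over the 25 with 69 or more *Top2a* and *Mki67* UMIs, the 38 genes listed for G2 and mitosis took between 0.650 and 2.64% of a cell's UMIs (median 1.03%) and the 30 genes listed for S phase between 0.0620 and 0.885% (median 0.515%). The S phase share was the larger in 2 of these 25 cells. Over the 14 with fewer, the share of G2 and mitosis lay between 0.0140 and 1.55% (median 0.211%) and that of S phase between 0.0304 and 0.788% (median 0.182%), and the S phase share was the larger in 7 cells. The lowest of these lay within the range of astrocytes, which reached 0.0862% for G2 and mitosis and 0.230% for S phase. In the 16 non-cycling members with at least 10 *Sox11* UMIs the medians were 0.0328% for G2 and mitosis and 0.0649% for S phase, and the S phase share was the larger in 14 cells. Among the 5 members with 5 or 6 *Sox11* UMIs the highest S phase share was above the highest of the 16 (0.355%). These shares were read per cell and carry no test.

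Gene levels were then compared between cycling members, non-cycling members and astrocytes by summing UMIs per library and class and testing the 9 sums in edgeR with the library as a block. The 7 genes of the rule were left out. The cells were chosen by UMIs in the same libraries, so that the p-values measure only the spread between the 3 libraries, each a pool of mice. Against astrocytes, cycling members were called higher in 34.8% of 8430 genes tested and lower in 32.9% at an adjusted p under 0.05. The split was 2937 genes higher and 2772 lower, against 2732 and 2975 with DESeq2's size factors in edgeR. Without the filter on low counts it was 2867 and 4721.

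Cell cycle genes rose in cycling members against astrocytes, as 38 of 38 tested genes of G2 and mitosis were higher (median log2 fold change 8.22), as were 30 of 30 of S phase and replication (5.15) and 15 of 15 of chromatin and chromosomal proteins (4.23), against a median of 0.03 over all genes tested. These genes are known to move with *Top2a* and *Mki67*, so that the counts describe what the gate took in. *Cenpf*, for a kinetochore protein, was at 1044, 591 and 1058 CPM in the cycling members of libraries 1, 2 and 3 and at 0.375, 0.689 and 0.377 CPM in astrocytes (log2 fold change 10.54, SE 0.32, adjusted p = 6.67e-15 in edgeR's quasi-likelihood test). *Hmgb2*, for a chromatin protein that bends DNA, was at 3086, 3051 and 3523 CPM against 43.2, 42.9 and 36.4 CPM (log2 fold change 6.00, SE 0.24). All 3 libraries of cycling members were above all astrocyte sums for both genes. *Mcm6*, for a subunit of the replicative helicase, was at 186, 337 and 218 CPM against 1.93, 1.76 and 1.62 CPM (log2 fold change 6.75, SE 0.23), highest in library 2. *Rrm2*, for a subunit of ribonucleotide reductase, was likewise highest in library 2, with 190, 402 and 258 CPM against 0.807, 1.19 and 0.943 CPM (log2 fold change 7.81, SE 0.22). *E2f8*, for an atypical E2F repressor, had UMIs in 24 of 39 cycling members and 0 in 8026 astrocytes, and was at least 1826-fold higher when 3 UMIs over all astrocytes were taken as the floor. Of the 10 named genes with the largest rise, *Hist1h3c* and *Hist1h3b* encode histone H3 in near-identical copies, whose counts are uncertain, and the others were *Ube2c*, *Hmmr*, *Aurkb*, *Kif23*, *E2f8*, *Lockd*, *Igfbpl1* and *Neil3*.

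Promoters of mitotic and S phase genes are known for short shared motifs, and 4 are shown because their genes rose together. The 250 bases before the RefSeq start (GRCm38.p6) were searched on both strands for the CHR letters TTTGAA, for CCAAT, and for the E2F letters TTTGGCGC, TTTCCCGC, TTTGCCGC or TTTCGCGC. Of the 38 genes of G2 and mitosis 33 had a promoter in the table, and 11 held TTTGAA (33.3%, against 18.3% of all 27025 promoters), 25 held CCAAT (75.8% against 37.5%) and 10 held both (30.3% against 6.45%). E2F letters stood in 6 of 24 promoters of S phase genes (25.0% against 2.16%). CCAAT was not particular to G2 and mitosis, as 14 of the 24 S phase promoters held it (58.3%). TTTGAA also stood in 3 of 13 promoters of the astrocyte list (23.1%) and in 3 of the 24 of S phase (12.5%). Capitals mark the CHR and CCAAT letters, or their reverse complements TTCAAA and ATTGG, in the 3 stretches of G2 and mitosis, and the E2F letters in that of *Mcm6*. The *Mcm6* stretch also holds ATTGG, which is left in lower case. The stretches are 100 bases in the direction of transcription, and no marked run overlaps another. They are *Ube2c* at chr2:164769829-164769928, forward strand, for the ubiquitin-conjugating enzyme of the anaphase-promoting complex, *Kif11* at chr19:37376282-37376381, forward strand, for a spindle motor, *Cdk1* at chr10:69352913-69353012, reverse strand, for the mitotic kinase, and *Mcm6* at chr1:128359706-128359805, reverse strand.
Ube2c: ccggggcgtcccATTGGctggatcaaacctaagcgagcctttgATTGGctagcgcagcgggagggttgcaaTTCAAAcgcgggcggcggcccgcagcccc
Kif11: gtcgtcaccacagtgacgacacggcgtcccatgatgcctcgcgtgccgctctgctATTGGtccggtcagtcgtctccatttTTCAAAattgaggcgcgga
Cdk1: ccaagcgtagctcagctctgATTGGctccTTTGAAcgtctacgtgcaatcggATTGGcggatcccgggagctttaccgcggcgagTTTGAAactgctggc
Mcm6: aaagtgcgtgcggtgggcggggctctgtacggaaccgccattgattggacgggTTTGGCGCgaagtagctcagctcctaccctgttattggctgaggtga

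The genes of these promoters were high in every library of cycling members. *Ube2c* was at 418, 230 and 567 CPM, *Kif11* at 319, 267 and 293 CPM and *Cdk1* at 248, 255 and 269 CPM. In astrocytes none of the 3 exceeded 0.957 CPM in a library. The non-cycling members of all libraries together held *Ube2c*, *Kif11* and *Cdk1* in 1 cell each. A match to motif letters is a description of the sequence, and no binding was measured.

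Most immature neuron genes rose with the cell cycle genes against astrocytes. Of 15 tested immature neuron genes 11 were higher and 4 lower in cycling members (median 5.30). Those near 0 in astrocytes passed the filter on low counts through the members, so that their direction describes what the filter took in. *Sox4*, a relative of *Sox11*, was at 817, 1035 and 1117 CPM in libraries 1, 2 and 3 against 17.6, 14.8 and 18.5 CPM in astrocytes (log2 fold change 5.56, SE 0.20, adjusted p = 6.08e-14 in edgeR). *Tmsb10*, for an actin-sequestering thymosin, was at 589, 1014 and 1082 CPM against 4.01, 2.64 and 4.86 CPM (log2 fold change 7.55, SE 0.27). The genes that fell were *Tubb2b* (log2 fold change −0.64), *Dlgap1* (−3.03), *Nnat* (−0.72) and *Robo2* (−1.06), all of which astrocytes expressed as well. Without library 1 only 2 genes of the list were called lower, and without library 2 also 2. Of 13 tested genes of neural stem cells and activated progenitors 5 were higher and 5 lower (median −0.04), near the 34.8% higher and 32.9% lower of all genes. *Egfr*, for a growth factor receptor of dividing progenitors, was at 1462, 1100 and 868 CPM against 249, 266 and 253 CPM (log2 fold change 1.81, SE 0.21), lowest in library 3 among cycling members and without overlap with astrocytes. *Vim*, for an intermediate filament of immature glia, was higher as well (log2 fold change 4.27, SE 0.20), whereas *Sox2*, a transcription factor gene of stem cells and astrocytes alike, had a log2 fold change of −0.04 (SE 0.17, adjusted p = 0.835 in edgeR).

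Genes of the Notch pathway, by which a cell carrying a Delta ligand holds its neighbours in the stem state, moved in both directions. The ligand genes *Dll1* (log2 fold change 9.27, SE 0.46), *Dll3* (8.17, SE 0.61) and *Jag1* (1.78) were higher in cycling members than in astrocytes, as were the receptor gene *Notch1* (0.93, SE 0.16), *Rbpj* (1.64), for the nuclear effector, and *Hes6* (5.25, SE 0.20). The target genes *Hes1*, *Hes5* and *Hey1*, for repressors of proneural genes, and the receptor genes *Notch2* and *Notch3* were lower. *Hes1* had UMIs in 1 of 39 cycling members and in 41.5% of astrocytes (log2 fold change −6.68, SE 0.57, adjusted p = 8.07e-09 in edgeR). *Hes5* was at 80.4, 86.2 and 19.8 CPM in the 3 libraries against 604, 508 and 569 CPM (log2 fold change −3.40, SE 0.28). Of 11 tested genes of the list 6 were thus higher and 5 lower.

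D-type cyclins and their kinases, which start the cell cycle, were higher in 4 of 5 genes and lower in 1. *Ccnd2* was at 1560, 2189 and 1327 CPM in cycling members against 48.8, 43.9 and 45.9 CPM in astrocytes (log2 fold change 4.88, SE 0.22). *Cdk6* was at 360, 246 and 289 CPM against under 1 CPM (log2 fold change 8.74, SE 0.35). *Ccnd3* went the other way, with 51.2, 41.1 and 15.9 CPM against 146, 185 and 157 CPM (log2 fold change −2.33, SE 0.27). Of 9 tested inhibitor and exit genes, 6 were higher and 2, *Rb1* and *Rbl2*, were lower. *Cdkn2c*, for an inhibitor of CDK4 and CDK6, was at 123, 103 and 107 CPM against 2.28, 1.76 and 2.19 CPM (log2 fold change 5.44, SE 0.27).

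Astrocyte genes fell in cycling members, with 16 of 16 tested genes lower (median −4.48). *Aldoc* was at 46.8, 12.3 and 7.92 CPM in the 3 libraries against 2072, 1884 and 1945 CPM (log2 fold change −6.37, SE 0.38, adjusted p = 6.76e-11 in edgeR). *Gja1*, for the gap junction protein connexin 43, was at 105, 37.0 and 31.7 CPM against 1576, 1670 and 1612 CPM (log2 fold change −4.90, SE 0.34). *Atp1b2*, which encodes the protein bound by the sorting antibody, was at 76.0, 103 and 39.6 CPM against 809, 855 and 837 CPM (log2 fold change −3.81, SE 0.24) and had UMIs in 30 of 39 cycling members. Astrocyte genes were thus low in cycling members but mostly above 0. Library 3 was the lowest of the 3 for each of these genes. *Cryab*, *Nkx6-2*, *Pcsk6* and *Gpr37* were the 4 named genes with the largest fall and had 0 UMIs in cycling members, at least 23.5-fold, 21.1-fold, 18.8-fold and 17.5-fold lower than in astrocytes with a floor of 3 UMIs over the class.

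**Figure D3:**
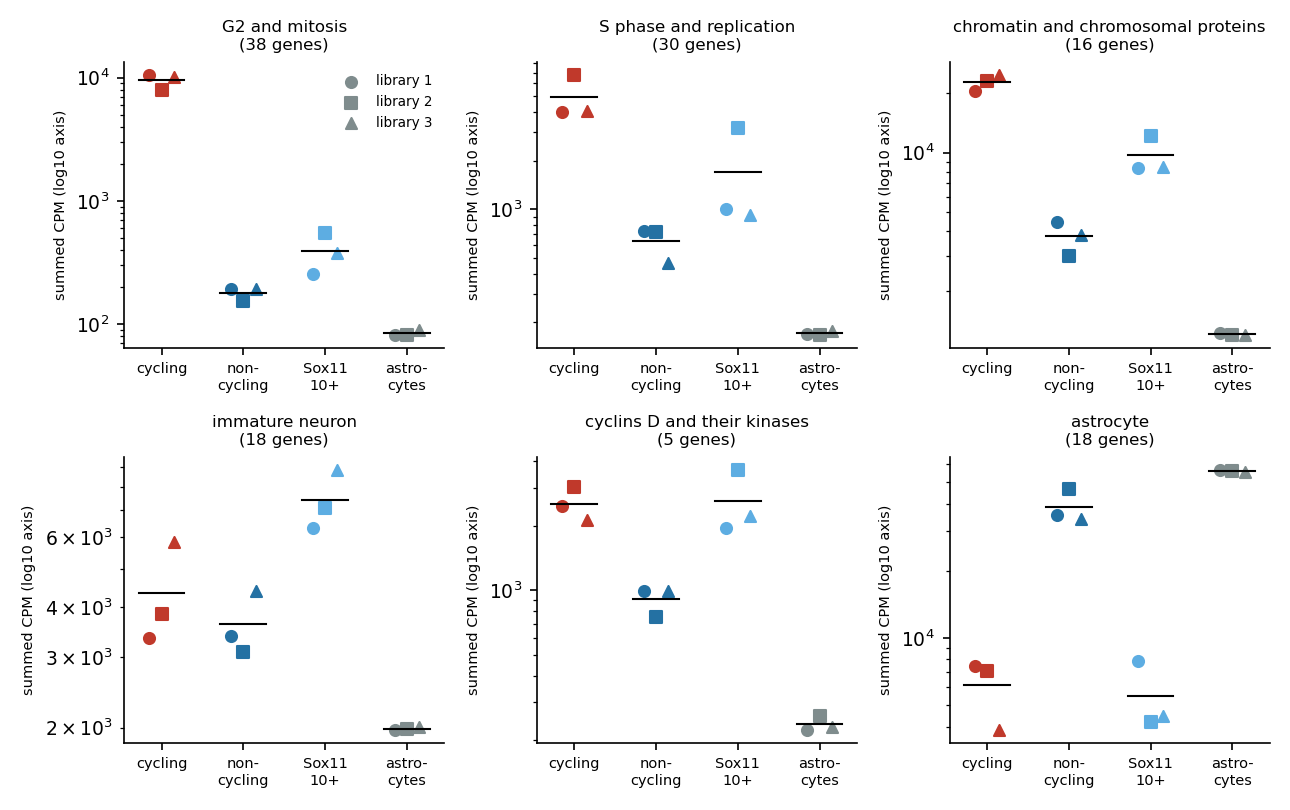
Summed CPM (log10 axis, different for each panel) of 6 gene lists in libraries 1 to 3, with the mean as a line, for cycling members, all non-cycling members, non-cycling members with at least 10 *Sox11* UMIs and astrocytes; the astrocyte list holds *Slc1a2* and *Slc1a3*, which the rule used for astrocytes. The list of G2 and mitosis was at 7921 CPM or more in each library of cycling members and at no more than 548 CPM in any library of the other classes.

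Against all 74 non-cycling members, cycling members were called higher in 21.9% of genes and lower in 24.6%. The genes of G2 and mitosis were higher in 38 of 38, with a median log2 fold change of 7.27, or 6.40 with the 11 genes that had 0 UMIs in non-cycling members at their floor. S phase genes were higher in 29 of 30 (median 2.85) and chromatin genes in 15 of 15 (2.37). *Prc1*, for a cross-linker of the central spindle, was at 700, 509 and 606 CPM against 0 UMIs, at least 256-fold higher. The other named genes with the largest rise were *Hist1h2af*, another near-identical histone copy, *Pbk*, *Kif15*, *Hmmr*, *Ckap2l*, *Cdca3*, *Ccna2*, *Kif23* and *Hist1h3b*. The named genes with the largest fall were *Pcsk6*, *Gpr158*, *Gpr37*, *Nkx6-2*, *Zbtb7c*, *Map3k5*, *Cryab*, *Cd38*, *Nat8f5* and *Lgals3bp*. *Cryab*, for a small heat shock protein, had 0 UMIs in cycling members and was at least 12.5-fold lower. Astrocyte genes were lower in 16 of 16 (median −3.82), and this contrast set cycling members against a class in which 58 of 74 cells had fewer than 10 *Sox11* UMIs.

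Setting cycling members against the 16 non-cycling members with at least 10 *Sox11* UMIs, a choice made after the values were seen, left 6.21% of 6379 genes higher and 2.34% lower. The cell cycle genes stayed higher, in 35 of 35 tested genes of G2 and mitosis, 17 of 24 of S phase and 12 of 15 of chromatin. *Hmgb2* was at 348 CPM in the 16 cells (log2 fold change 3.25, SE 0.23, adjusted p = 7.93e-07 in edgeR) and *H2afz*, for a histone variant, at 489 CPM against 2728, 2661 and 3384 CPM in the 3 libraries of cycling members (log2 fold change 2.61, SE 0.24). Of the 16 tested astrocyte genes 0 passed at an adjusted p under 0.05 in edgeR, and 1 had an unadjusted p under 0.05 (median 0.57, or 0.39 with genes at 0 UMIs at their floor). *Gja1* had a log2 fold change of 0.28 (SE 0.54) and *Apoe*, for a lipid carrier, of 0.33 (SE 0.37, adjusted p = 0.662), although *Apoe* fell by 3.20 (SE 0.29) on the log2 scale against all 74. Of the cyclin D list 0 of 5 genes passed in edgeR, and 1 had an unadjusted p under 0.05.

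Immature neuron genes were lower in cycling members than in the 16 cells, in 6 of 16 tested genes, with 0 higher (median −0.82). The 16 were chosen for *Sox11*, itself an immature neuron gene, and cycling members were not, so that these counts describe what the threshold took in. *Sox4* was at 1783 CPM in the 16 (log2 fold change −0.89, SE 0.23, adjusted p = 0.0237 in edgeR). *Tubb3*, for a neuronal tubulin, was at 315 CPM in the 16 against 21.9, 82.1 and 79.3 CPM in the 3 libraries of cycling members (log2 fold change −2.52, SE 0.47). *Dcx*, for the microtubule protein doublecortin of migrating neurons, was at 252 CPM in the 16 against 16.1, 32.9 and 111 CPM (log2 fold change −2.16, SE 0.48, adjusted p = 0.00974). *Myt1*, for a zinc finger factor of neuronal differentiation, had a log2 fold change of −1.81 (SE 0.36). *Stmn1* and *Hes6*, which were higher against all 74, had log2 fold changes of 0.67 (SE 0.21, adjusted p = 0.0695) and 0.69 (SE 0.25, adjusted p = 0.110) against the 16, and *Marcksl1* went from 1.00 (SE 0.20) to −0.51 (SE 0.22, adjusted p = 0.172).

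Against astrocytes, the 74 non-cycling members were called higher in 11.8% of genes and lower in 6.47%, in 994 and 545 genes. With DESeq2's size factors in edgeR the split was 895 higher and 922 lower. Of 15 tested immature neuron genes 11 were higher and 0 lower (median 4.90), and of the named markers outside the rule *Stmn1*, *Marcksl1*, *Hes6* and *Eomes* were all higher. The 74 cells were chosen for *Sox11*, itself an immature neuron gene. Genes near 0 in astrocytes, such as *Eomes*, passed the filter on low counts through the members. These counts therefore describe what the threshold and the filter took in. *Stmn1* was at 576, 305 and 713 CPM in the 3 libraries against 28.3, 21.4 and 26.8 CPM (log2 fold change 4.17, SE 0.24, adjusted p = 3.85e-10 in edgeR), with UMIs in 35 of 74 cells. Of these, 16 cells were the members with at least 10 *Sox11* UMIs, all of which had it, and 16 were among the 53 with 3 or 4. *Slit1*, for a repulsive axon guidance ligand, was at 99.7, 119 and 68.0 CPM against 0.202, 0.0765 and 0.0754 CPM (log2 fold change 9.27, SE 0.33) but had UMIs in 12 of 74 cells, 10 of them with at least 10 *Sox11* UMIs. *Gsx1*, a homeobox gene of ventral forebrain progenitors, had UMIs in 6 cells, all with at least 10 *Sox11* UMIs, and 0 in astrocytes, so that it was at least 486-fold higher with a floor of 3 UMIs over all astrocytes. *Igfbpl1*, *Dcx* and *Cd24a* had no UMI in any of the 53 cells with 3 or 4 *Sox11* UMIs. A mean over the 74 cells therefore describes few of them.

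Fewer genes fell than rose in the 74 cells against astrocytes with TMM scaling and the filter on low counts. Without that filter 892 genes were higher and 1856 lower. *Apoc1*, for an apolipoprotein, had the largest fall among named genes, at 7.48, 6.42 and 4.12 CPM against 23.8, 22.8 and 22.5 CPM (log2 fold change −2.13, SE 0.46, adjusted p = 0.00336 in edgeR), which are 5 cells with a UMI. *Arhgap31*, *Fam189a2*, *Proca1*, *Kremen1*, *Pltp*, *Nrg2*, *Echdc2* and *Nrros* were among the others. Of 16 tested astrocyte genes 9 were lower and 0 higher (median −0.67), and S phase genes were higher in 21 of 30 (median 2.24) at levels between 466 and 730 CPM for the summed list. Of the astrocyte genes 4 were lower without library 1, 5 without library 2 and 1 without library 3 (medians −0.65, −0.82 and −0.57). Without library 1 the calls fell from 1539 to 763 genes, and without library 3 to 796.

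In the 16 cells with at least 10 *Sox11* UMIs, 21.8% of genes were higher and 27.3% lower than in astrocytes. Immature neuron genes were higher in 12 of 16 and lower in 2, and astrocyte genes lower in 16 of 16 (median −5.09, or −4.62 with genes at 0 UMIs at their floor). As these cells were chosen for *Sox11*, the count of immature neuron genes describes what the threshold and the filter took in. *Stmn1* had a log2 fold change of 5.44 (SE 0.25) and *Dcx* of 10.77 (SE 0.63, adjusted p = 4.74e-09 in edgeR). By the rule these cells held no more than 2 *Top2a* and *Mki67* UMIs. S phase genes were higher than in astrocytes in 19 of 24, chromatin genes in 15 of 15 and genes of G2 and mitosis in 8 of 35, and 4 of 5 genes of the cyclin D list were higher, with *Ccnd2* at 1567 CPM (log2 fold change 4.62, SE 0.28). *Hmgb2* had a log2 fold change of 2.56 (SE 0.24) and *Mcm6* of 5.78 (SE 0.39), the latter with UMIs in 12 of the 16 cells.

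At the same depth of 5000 UMIs per cell, the genes whose share of cells with a UMI stood furthest above astrocytes were, for cycling members, *Stmn1* (97.4% against 12.5%), *Adgrv1* (86.8% against 2.69%) and *Pclaf* (84.2% against 0.830%), with *Smc2*, *Selenoh*, *Tmsb10*, *Lmnb1*, *Cenpf* and *Hmgb3* among the others. *Adgrv1*, for a large adhesion receptor, and *Stmn1* were as frequent in the 16 non-cycling members with at least 10 *Sox11* UMIs (81.3% and 93.8%), whereas *Pclaf*, for a PCNA-binding protein, had a UMI in 0 of these 16 thinned cells. For non-cycling members the leading genes included *Ran* (49.3% against 22.3%), *Stmn1*, *Dscaml1* (24.7% against 0.171%), *Sox4*, *Fnbp1l*, *Marcksl1*, *Rpl15*, *Tnpo1* and *Adgrv1*. *Dscaml1*, for a cell adhesion molecule, was found in 93.8% of the 16 and in 1.92% of those with 3 or 4 *Sox11* UMIs. The shares carry no test.

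The 55 members that were cycling or had at least 10 *Sox11* UMIs fell into patterns of neurogenic genes that the rule did not use. *Neurod1*, a factor gene of glutamatergic neurons, had UMIs in 7 of them, 3 cycling and 4 non-cycling. All 7 were in library 3, and libraries 1 and 2 had 0 among 38 such cells. Each of the 7 had between 3 and 33 *Neurod1* UMIs, between 13 and 33 *Eomes* UMIs, between 17 and 53 *Igfbpl1* UMIs and between 2 and 15 *Dcx* UMIs. Each had 0 UMIs of *Egfr* and of *Meis2*, at depths between 15098 and 37767 UMIs. Pooled over the 7, *Igfbpl1*, for a secreted protein of newborn neurons, was at 1568 CPM, *Eomes* at 839 CPM and *Neurod1* at 697 CPM.

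The other 48 cells, 28, 10 and 10 in libraries 1, 2 and 3, had 0 *Neurod1* UMIs. *Egfr* was found in 47 of them with a median of 36 UMIs, and *Meis2*, a homeobox gene of ventral forebrain lineages, in all 48 with a median of 15.5. *Meis2* was not particular to these cells, as astrocytes held it at 278 CPM and 55 of the 58 non-cycling members with fewer than 10 *Sox11* UMIs had it, at 341 CPM. *Eomes* was found in 9, *Dlx1* in 13, *Dlx2* in 8 and *Gad2* in 4. These genes did not keep to separate cells. The cells with 16, 13 and 3 *Gad2* UMIs also held 11, 8 and 3 *Eomes* UMIs, and the cell with 2 held 0. The cell with 16 *Gad2* UMIs had 12 UMIs of *Dlx1*, 8 of *Dlx2* and 17 of *Igfbpl1*. *Sp8*, *Dlx5*, *Dlx6* and *Lhx6*, further genes of GABAergic lineages, had 0 UMIs in members. Hashtags called 5 of the 7 as singlets with 3 distinct hashtags, 1 as a doublet and 1 as negative, and 3 of the 5 singlets carried a hashtag of no listed mouse. As all 7 came from library 3, the library and its mice cannot be told apart.

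**Figure D4:**
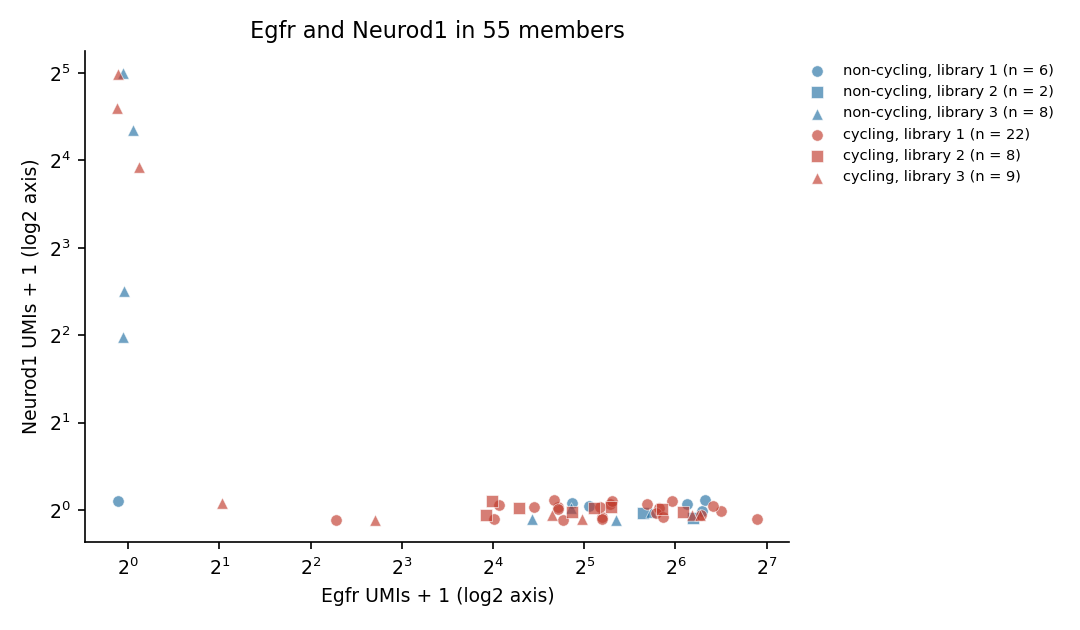
Each point is 1 of the 55 members that were cycling or had at least 10 *Sox11* UMIs, by its *Egfr* (horizontal) and *Neurod1* (vertical) UMIs, each plus 1 on a log2 axis with a slight jitter; colour gives the class and shape the library. The 7 cells with *Neurod1* UMIs, all triangles of library 3, stand on the left edge at 0 *Egfr* UMIs, and 47 of the other 48 spread along the base.

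*Eomes* followed this split between libraries. In cycling members it was at 26.3, 4.11 and 277 CPM in libraries 1, 2 and 3 and in non-cycling members at 59.8, 0 and 196 CPM, against 1 UMI in all astrocytes. From all non-cycling to cycling members its log2 fold change was −0.14 (SE 0.35, adjusted p = 0.760 in edgeR), a value that changed with the threshold for members. Against the 16 with at least 10 *Sox11* UMIs *Eomes* was lower in cycling members (log2 fold change −1.48, SE 0.37, adjusted p = 0.0195), as it was with thresholds of 5 UMIs (−1.07, SE 0.33, adjusted p = 0.0394), and with thresholds of 2 UMIs it was higher (1.30, SE 0.38, adjusted p = 0.00525). *Igfbpl1* was at 35.1, 69.8 and 547 CPM in cycling members and at 107, 19.3 and 375 CPM in non-cycling members, with library 3 highest in both. *Egfr*, by contrast, was lowest in library 3 in both classes, with 517 CPM against 1070 and 633 CPM in non-cycling members.

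The summed pericyte, endothelial, microglia and oligodendrocyte lists were lower in cycling members than in astrocytes, whereas the 10 mature neuron genes summed to 205 CPM in cycling and 182 CPM in non-cycling members against 22.1 CPM in astrocytes, led by *Rbfox3* in both classes of members. The rule capped *Vtn* and *Rgs5* in members and astrocytes alike, so that these genes of the pericyte list were held down by the choice of cells in both. *Pdgfrb*, which was not capped, was at 72.8 CPM of the 83.6 CPM of this list in astrocytes. In cycling members 14 UMIs came from the 7 pericyte genes (11.7, 8.21 and 15.8 CPM by library), led by *Vtn*, with *Abcc9* and *Ndufa4l2* at 0. The 7 endothelial genes gave 1 UMI, with *Cldn5*, *Pecam1* and *Flt1* at 0, and the 11 microglia and macrophage genes gave 12 (8.77, 16.4 and 7.92 CPM), with *C1qa*, *C1qb*, *C1qc* and *Csf1r* at 0. The 7 genes of mature oligodendrocytes gave 49 UMIs (29.2, 82.1 and 35.7 CPM), led by *Cnp*, with *Mog* and *Mag* at 0. The 11 genes of oligodendrocyte precursors, which also divide, gave 190 UMIs (181, 214 and 55.5 CPM), of which *Cspg5*, expressed by astrocytes at 1179 CPM, led at 115 CPM and made most of the difference from astrocytes. *Pdgfra* and *Sox10*, which define these precursors, had 0 UMIs in cycling and non-cycling members alike. In non-cycling members the pericyte list summed to 49.9, 57.8 and 76.2 CPM in the 3 libraries, led by *Pdgfrb*, against 82.6, 78.5 and 90.0 CPM in astrocytes. The microglia and macrophage list summed to 67.3, 41.7 and 28.8 CPM against 47.1, 45.6 and 44.9 CPM, and the precursor list, led by *Cspg5*, to 873, 873 and 812 CPM against 1257, 1191 and 1224 CPM. Mature oligodendrocyte genes summed to 79.8, 80.3 and 68.0 CPM against 94.1, 90.4 and 94.0 CPM, and endothelial genes gave 2 UMIs. The 18 genes of the astrocyte list, led by *Slc1a2* at 1393 CPM, summed to 7444, 7075 and 3867 CPM in cycling members. In non-cycling members they summed to 35668, 46658 and 34079 CPM, led by *Apoe*, against 56612, 55881 and 55314 CPM in astrocytes. In the 16 with at least 10 *Sox11* UMIs they summed to 7858, 4170 and 4476 CPM, with *Aqp4* and *S100b* at 0. Of the 113 members 110 reached the 20 UMIs of *Slc1a2* and *Slc1a3* that the rule asks of astrocytes, and the part of free astrocyte RNA in these levels was not tested.

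The share of members among a mouse's cells was compared between behavioural groups, which the rule did not use. Of the 113 members 24 had a singlet hashtag of a listed mouse. The strongest hashtag of a cell had a median of 5 UMIs in cycling and 4 in non-cycling members. NoFC mice had 0, 1.32, 0.938 and 1.39% members, FC mice 1.48, 0.913, 0 and 0.847%, NoFR mice 0.629, 0, 0.529 and 1.21%, and FR mice 0.957, 0, 0.510 and 0.912%. Each group held 1 mouse at 0, which at between 106 and 134 cells allows a share of up to between 2.24 and 2.83% when 3 counts are taken as the limit, or between 2.79 and 3.50% by the upper Wilson bound. The mean was 0.911 ± 0.638% (SD, n = 4 mice) for NoFC, 0.811 ± 0.611% for FC, 0.593 ± 0.497% for NoFR and 0.595 ± 0.444% for FR mice, and all groups overlapped.

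No pair of groups passed the test over mice, which did not take the library into account. Over 6 pairs the smallest 2-sided exact permutation p was 0.457, for NoFR against NoFC mice (difference −0.318 percentage points, Benjamini-Hochberg adjusted p = 0.943). Within library 1 the mean share of 2 mice was 0.658% for NoFC, 1.20% for FC, 0.314% for NoFR and 0.478% for FR, so that FC mice were the highest there. In library 2 they were 0.938% in the NoFC mouse, 0.424% in 2 FC mice and 0.510% in the FR mouse, and in library 3 they were 1.39% in the NoFC mouse, 0.871% in 2 NoFR mice and 0.912% in the FR mouse. By these library means FR mice lay below NoFC mice in 3 of 3 libraries, and NoFR mice below NoFC mice in both libraries that held them together, but the mice overlapped in library 1, and the sign of both differences changed with the settings. The difference of FR minus NoFC over all mice was 0.401 percentage points with a hashtag quantile of 0.95 and 0.0703 with thresholds of 2 UMIs, and that of NoFR minus NoFC was 0.0349 with thresholds of 5 UMIs. With group labels permuted within libraries, a test added after seeing the data, the 2-sided exact p was 0.500 for FR against NoFC mice (weighted difference −0.316 percentage points, adjusted p = 0.750, smallest possible p 0.0833) and 0.444 for NoFR against NoFC mice (−0.413, adjusted p = 0.750, smallest possible p 0.0556). In 6 of 6 pairs such a test cannot reach a p under 0.05. Each mouse held between 0 and 4 members, and the intervals of the shares reached from 0 up to 4.92%.

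**Figure D5:**
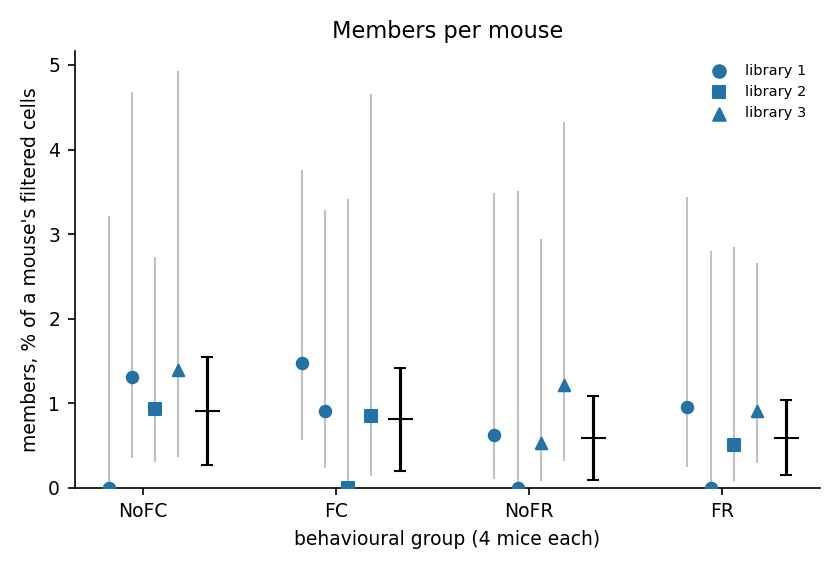
Members in percent of a mouse's filtered cells (vertical) for the 4 mice of each behavioural group (horizontal); shape gives the library, grey lines are 95% Wilson intervals and black bars the mean ± SD over mice. Each group has 1 mouse at 0, and the group means lie between 0.593 and 0.911%.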

How the data were processed

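Single-cell RNA libraries of ACSA-2 sorted amygdala cells were deposited as 3 matrices of UMI counts per gene and barcode with hashtag counts beside them. According to the submitters' processing notes the authors used Cell Ranger 3.0 and the mm10 genome, and counts were deposited without normalization. The header of the matrices names a later version of Cell Ranger, and this difference was not resolved. The 3 matrices hold between 31700569 and 42350059 gene UMIs.

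Barcodes were taken by the rule given above, and CPM are UMIs per 1e+06 gene UMIs. Members, gene lists and tests were chosen with earlier results of these data known. UMIs were summed per library and class, and 8430 genes past edgeR's expression filter were tested with edgeR 4.0.16 (R 4.3.3; TMM, quasi-likelihood test, library as a block, 4 residual degrees of freedom, Benjamini-Hochberg adjustment over all genes). The library is the block because every class was cut from the same 3 libraries. The 7 genes of the rule were not tested. Named genes were the 10 called genes with the largest change in each direction that moved the same way in all 3 libraries. Unnamed gene models were left out. Also named were the 4 genes of each of 23 lists with the highest level in members. Genes needed for a count of 5 or fewer were named as well. The last were the 10 genes whose share of cells with a UMI at equal depth stood furthest above astrocytes. Further list genes were named after their values were seen. Some genes that this rule names are not reported here. The result for every list is a count of called genes and a median, not a set test. On simulated counts the fit recovered 64% of genes changed by 1 on the log2 scale and 99% of those changed by 2 for cycling against non-cycling members (7306 genes), 79% and 100% for cycling members against astrocytes (7202 genes), and 90% and 100% for non-cycling members against astrocytes (7226 genes). Unchanged genes made 4.68, 3.24 and 5.94% of these calls. The simulation gave every class the astrocyte levels and every gene 1 dispersion (0.019). It changed 100 genes by each amount, none of them near 0, so that it does not cover genes near 0 in a class or changes in many genes.

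Hashtags were called with HTODemux (Seurat 5.3.0, quantile 0.99) after leaving out hashtags with under 100 UMIs in a library, and a mouse was taken from the hashtag table. Group shares were compared over mice with 2-sided exact permutation tests (scipy 1.17.1), over all mice of a pair and, added later, within libraries with each library's difference weighted by its numbers of mice. Wilson intervals are at 95% and cover counting error only. Doublets were marked with Scrublet (scanpy 1.11.5) and kept. It marked under 1% of barcodes, so doublets between alike cells may remain. Cells were thinned to 5000 UMIs where shares of cells with a UMI are compared, which left out 1 cycling member, 1 non-cycling member and 436 astrocytes. Alternatives were DESeq2 1.42.0, its size factors, other filters and thresholds, thinning, and leaving out each library.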

Additional observations from a re-analysis of the deposited data

Results flagged for a closer look

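Hashtag calls held a signal outside the comparisons between mice. A total of 8 members were called as singlets of a hashtag that the hashtag table assigns to no mouse, beside the 24 assigned to a listed mouse. That is 25.0% of the singlet members, against 31.8% of singlet astrocytes and 32.8% of singlets in the mural class, so that such calls were not particular to the members. They entered no share per mouse, and nothing further was tested on them.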

How the results depend on the processing

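Counts of called genes moved with the threshold for members and with depth. For cycling against non-cycling members, 3917 genes were called, against 6657 with a threshold of 2 UMIs, 1139 with 5 UMIs, 1748 with cells thinned, and 545 with at least 10 *Sox11* UMIs for non-cycling members, the last chosen after seeing the data. For cycling members against astrocytes, 5709 became 2377 with cells thinned and 374 without members of at least 20 *Slc1a2* and *Slc1a3* UMIs, which left 3 cells and allowed no other comparison. For non-cycling members against astrocytes, 1539 became 387 with 2 UMIs, 3074 with 5 UMIs, 442 with cells thinned, 3134 with at least 10 *Sox11* UMIs, 2748 without a filter on low counts and 2329 with only both classes fitted. Leaving out each library gave 3214 to 3302, 4787 to 5593 and 763 to 1306 calls in the 3 comparisons, the lowest for non-cycling members without library 1 (763) and library 3 (796). Without the replicate block of libraries the calls were 4053, 6024 and 2153. DESeq2 called 3709, 5351 and 1238.

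Of 1630 alternative values of the genes named with a call, 1546 kept direction and call, 72 kept direction only and 12 reversed. Cycling against non-cycling members reversed for *Marcksl1* (−0.17) and *Sox4* (−0.53) with 5 UMIs, and for *Marcksl1* (−0.51), *Sox4* (−0.89), *Apoe* (0.33), *Gja1* (0.28) and *Cryab* (0.0040, with 0 UMIs in both classes) with at least 10 *Sox11* UMIs. In the 3 cells with few *Slc1a2* and *Slc1a3* UMIs, *Egfr* (−1.18), *Notch1* (−1.54), *Rbpj* (−0.22) and *Robo2* (0.91) reversed against astrocytes, and *Nrros* (0.075) did so for non-cycling members with 2 UMIs. Apart from these constructions of the classes, the cause was not tested.

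The share of members was 0.700, 0.357 and 0.508% in libraries 1, 2 and 3 with 5 UMIs and 2.96, 2.57 and 3.00% with 2 UMIs. The share of cycling members with at least 3 *Sox11* UMIs was 73.7% thinned and between 93.3 and 100% without a library. Differences between groups of mice, in percentage points, changed sign with an HTODemux quantile of 0.95 (FC minus NoFC 0.247, FR minus NoFC 0.401, FR minus FC 0.154), with 2 UMIs (FC minus NoFC 0.473, FR minus NoFC 0.0703), with 5 UMIs, added after seeing the data (NoFR minus NoFC 0.0349, NoFR minus FC 0.161, FR minus NoFR −0.181), and per astrocyte (FR minus NoFR −0.125). Without single mice they ranged from −0.404 to 0.170 (FC minus NoFC), −0.622 to −0.120 (NoFR minus NoFC), −0.619 to −0.118 (FR minus NoFC), −0.488 to 0.00564 (NoFR minus FC), −0.486 to 0.00785 (FR minus FC) and −0.195 to 0.209 (FR minus NoFR). With group labels permuted within libraries, also added after seeing the data, FC minus NoFC changed sign (0.118) and 0 of 6 pairs passed, which such permutations of these mice cannot do at 0.05. The replicate numbers of the mice only name samples and pair none. The shares rest on 24 members over 16 mice.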

Other observations

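Most genes of mature neurons and of the early response were too low to test. Of 10 mature neuron genes 2 were tested, *Rbfox3* and *Snap25*, and both were higher than in astrocytes in cycling and in non-cycling members (34.8 and 11.8% of all genes were). Astrocytes held none of the 10 above 4.14 CPM. The tested genes thus passed the filter through the members, and their direction describes what the filter took in. Of 12 immediate early and dissociation genes *Btg2* and *Jun* were tested, both higher in cycling members and *Btg2* alone in non-cycling members. Without a filter on low counts, cycling members had 4 of 10 mature neuron genes higher and 1 lower, and non-cycling members 3 higher and 0 lower. Of the early genes, cycling members then had 2 higher and 2, *Fos* and *Nr4a1*, lower, and non-cycling members 1 higher and 0 lower. *Rbfox3*, for the neuronal splicing factor NeuN, was at 64.3, 111 and 242 CPM in cycling members of libraries 1, 2 and 3 and at 94.7, 89.9 and 92.7 CPM in non-cycling members, against 0.605, 0.650 and 0.302 CPM in astrocytes (log2 fold change against astrocytes 7.53 in cycling and 7.23 in non-cycling members). *Btg2*, an anti-proliferative early response gene known from neurogenic divisions, was at 113, 115 and 178 CPM and at 142, 96.3 and 98.9 CPM, against 18.5, 19.9 and 19.5 CPM (2.47 and 2.38).

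Of 11 tested regional transcription factor genes 3 were higher and 4 lower in cycling members than in astrocytes (median −0.29), and 2 were higher and 1 lower in non-cycling members (median −0.06), beside 34.8 and 32.9% of all genes in the first comparison and 11.8 and 6.47% in the second. *Nr2f1* was higher in both classes, at 586, 320 and 487 CPM and at 334, 238 and 295 CPM against 162, 167 and 170 CPM. *Tcf7l2* was lower in both, at 117, 94.4 and 119 CPM and at 237, 292 and 255 CPM against 338, 349 and 339 CPM. In non-cycling members the calls of *Nr2f1* and *Tcf7l2* were lost without library 1 (adjusted p = 0.161 and 0.128 in edgeR) and without library 3 (0.146 and 0.164). *Prox1*, a homeobox gene known from granule neurons, was at 114, 86.2 and 349 CPM in cycling members against 11.2, 16.5 and 13.5 CPM in astrocytes (log2 fold change 3.31), highest in the library that held the *Neurod1* cells.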
